A study of Homo sapiens with 6 samples.

Results

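The 10 genes described here are the early growth response factors EGR1, EGR2, EGR3 and EGR4, the orphan nuclear receptors NR4A1, NR4A2 and NR4A3, the corepressors NAB1 and NAB2, and the serum response factor SRF. They are the rows of the deposited table that carry one of these symbols, 10 of 28395 genes. RNA-seq was performed in A375, an established cell line from a human melanoma, whose genotype is labelled WT. Mutations that the line itself carries were not examined. The control cells received olive oil (OLO) at 0.01% and the treated cells ozonated olive oil (OZO) at 0.01%, both for 6 h, and each group had 3 libraries. The study asked how OZO changes gene expression in melanoma cells. The genes were chosen by family, with the fold changes of the authors' own comparison of the groups in view. Those fold changes are not used here, nor were single libraries analysed, so no difference between OZO and OLO is given for any gene. What follows are mean levels over the 6 libraries of both groups and the reference sequence at the genes' starts.

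EGR and NR4A genes are immediate early genes. Growth factors and many stresses switch them on within minutes, without new protein synthesis, largely through ERK signalling and the transcription factors SRF and CREB. EGR proteins bind GC-rich DNA through zinc fingers, and NR4A proteins bind DNA as orphan members of the nuclear receptor family. NAB proteins can dock on EGR proteins such as EGR1 and repress their activity. SRF binds the CArG box, the core of the serum response element, together with ternary complex factors such as ELK1.

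The starts of the genes were read first, because SRF and EGR proteins act there. RefSeq windows of GRCh38.p14, each holding 250 bases before and 50 after an annotated start, were matched for 8 of the 10 genes at 14 starts, EGR3 and NR4A2 being the other two. A CArG box was found at 3 of the 14 starts, 1 each of EGR1, EGR2 and SRF. Of all 35116 RefSeq start windows, 1.29% held at least 1 such box on either strand and 11 windows (0.0313%) held at least 2 boxes. The EGR1 window and the first SRF window were among those 11. The stretches next to the starts are shown 5′ to 3′ along the gene with the CArG boxes in capitals, since these are the members whose sequence matches the factor in the same list.

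EGR1, plus strand, chr5:138465349-138465478: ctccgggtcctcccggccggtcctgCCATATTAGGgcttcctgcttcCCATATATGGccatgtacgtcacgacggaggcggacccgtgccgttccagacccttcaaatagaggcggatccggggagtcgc
EGR2, minus strand, chr10:62816367-62816496: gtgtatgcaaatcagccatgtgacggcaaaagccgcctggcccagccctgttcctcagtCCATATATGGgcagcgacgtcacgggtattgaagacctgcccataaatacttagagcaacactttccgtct
SRF, plus strand, chr6:43171139-43171268: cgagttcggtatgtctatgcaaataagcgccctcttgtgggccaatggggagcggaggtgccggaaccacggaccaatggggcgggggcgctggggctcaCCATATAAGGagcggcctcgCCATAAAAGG

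In EGR1 the boxes lay at -105 to -96 and -83 to -74, counted from the start, where the first transcribed base is 1 and the base before it is -1. The EGR2 box lay at -71 to -62 of the start of its canonical transcript, and its letters were those of the second EGR1 box. The windows of the other 2 EGR2 starts, 2801 and 2409 bases upstream of that start, held no CArG box. In SRF the boxes lay at -30 to -21 and -10 to -1, and the second box ended at the base before the start. The ETS site was searched only as the letters CCGGAA, so other forms of it were not looked for. These letters stood at -70 to -65 of the same SRF window, and were also found at -17 to -12 of the most upstream NR4A1 start. CCGGAA was found in 17.2% of all windows. Its absence from the EGR1 and EGR2 windows says only that these letters are not there.

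The EGR binding site was searched as GCGNGGGCG on both strands and was found in 9.43% of all windows. It occurred at 6 of the 14 member starts, 2 of NAB1 and 1 each of EGR1, EGR2, NAB2 and SRF. Both corepressor genes, whose products can bind EGR proteins such as EGR1, had it shortly before a start. The stretches are shown with the matches in capitals; in NAB1, 2 overlapping matches on the minus strand form 1 run.

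NAB2, plus strand, chr12:57088984-57089113: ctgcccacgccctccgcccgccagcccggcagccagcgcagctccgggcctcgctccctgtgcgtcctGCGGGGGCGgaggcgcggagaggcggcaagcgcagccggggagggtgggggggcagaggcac
NAB1, plus strand, chr2:190648765-190648894: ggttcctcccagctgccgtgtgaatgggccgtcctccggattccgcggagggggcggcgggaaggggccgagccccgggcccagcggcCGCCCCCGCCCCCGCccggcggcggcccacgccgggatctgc

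The NAB2 match lay at -62 to -54. The NAB1 matches lay at -42 to -34 and -36 to -28 of the most upstream start, with a further one at 14 to 22. These 3 NAB1 matches also fall in the window of the next start, 188 bases downstream, and are the same bases counted again there. That window held 1 further match of its own, at 9 to 17 of the second start on the minus strand. These windows were rich in G and C, with 81.2% in the 250 bases before the NAB2 start and 78.0% before the first NAB1 start, against a median of 58.0% over all windows. The EGR1 match lay at -198 to -190, the SRF match at -49 to -41 and the EGR2 match at 9 to 17 of its second start. No match was found in the members' windows for the cAMP response element TGACGTCA (1.85% of all windows), for the NR4A monomer site AAAGGTCA (1.22%) or for the AP-1 site TGANTCA (7.71%), which says only that these letters are not in these windows. The TATA sequence TATAAA (11.5% of all windows) was found on the minus strand at 15 to 20 of the first SRF window. The 2 NR4A1 starts in the table lie 28610 and 13727 bases upstream of the start of its canonical transcript, so the window of that start is not covered.

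**Figure D1:**
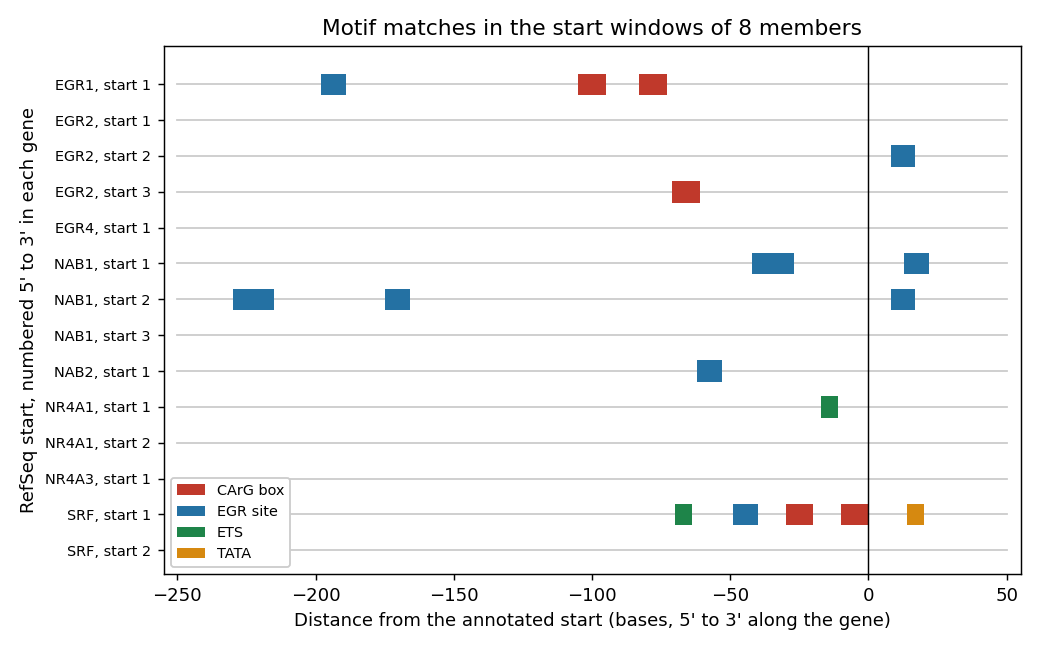
Motif matches at the 14 RefSeq starts of 8 members. The horizontal axis is the distance from the start in bases, each grey line is 1 window of 250 bases before to 50 after a start, and coloured blocks are matches on either strand; CArG boxes (red) appear for EGR1, for the third EGR2 start and for the first SRF start, and EGR sites (blue) for 5 members.

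The mean levels were given by the authors as log2 CPM (counts per 1000000 counted fragments), averaged over the 6 libraries. The lowest value of the table, held by 7012 genes, is that of a gene without reads and implies a geometric mean library size of 18409902 fragments, so that 1 read was worth 0.0543 CPM. The depth and the spread of the single libraries are unknown here, and each level therefore has no standard deviation. The limit set by counting alone is given as the smallest standard error that the implied reads allow. A level is a mean over both treatments. A gene that differs between the groups has a mean that lies between its group levels and describes neither of them. Of the 10 genes, 9 had a mean of at least 10 implied reads per library, as did 13773 of all genes, and 1 did not.

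EGR1 (NCBI Gene 1958, chromosome 5, 138465479 to 138469303), the best known early gene of the family, had the highest level of the list. Its mean was 7.50 log2 CPM, or 181 CPM, from an implied 3325 reads per library, with a counting error of at least 0.010 on the log2 scale. Of the genes with at least 10 reads, 91.4% had a lower mean. EGR1 alone held 96.0% of the CPM summed over the 4 EGR genes.

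The other EGR genes were read far less. EGR3 (chromosome 8, 22687659 to 22693480), which like EGR2 is known from nerve and immune cells, had a mean of 2.68 log2 CPM, or 6.39 CPM, from an implied 117 reads. EGR2 (chromosome 10, 62811996 to 62819167), a regulator of myelination, had a mean of 0.06 log2 CPM, or 1.04 CPM, from an implied 18.7 reads. The exact value of its mean requires at least 119 EGR2 reads over the 6 libraries together, and its counting error was at least 0.13 on the log2 scale. EGR4 (chromosome 2, 73290929 to 73293548) was the least read member, with a mean of -2.90 log2 CPM, or 0.134 CPM, from an implied 1.96 reads. Its mean requires at least 13 reads over the 6 libraries, and a counting error of at least 0.38 on the log2 scale leaves its level uncertain at this depth. EGR4 was thus detected, at the edge of what these libraries can measure.

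Within the NR4A family, NR4A1 (chromosome 12, 52022832 to 52059503), also known as Nur77, was read most. Its mean was 5.30 log2 CPM, or 39.5 CPM, from an implied 727 reads. NR4A2 (chromosome 2, 156324437 to 156332721), known as Nurr1 from dopamine neurons, had a mean of 3.09 log2 CPM, or 8.51 CPM, from an implied 156 reads. NR4A3 (chromosome 9, 99821885 to 99866891), known as NOR1, had a mean of 2.51 log2 CPM, or 5.69 CPM, from an implied 104 reads. NR4A1 held 73.6% of the CPM summed over the family, a smaller share than that of EGR1 in its own.

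The corepressors and SRF had similar means. NAB1 (chromosome 2, 190648895 to 190692766) had 5.58 log2 CPM, or 47.7 CPM, from an implied 878 reads. NAB2 (chromosome 12, 57089114 to 57095476), itself a known EGR target, had 5.05 log2 CPM, or 33.2 CPM, from an implied 611 reads. SRF (chromosome 6, 43171269 to 43181506) had 5.38 log2 CPM, or 41.5 CPM, from an implied 764 reads. All 3 lay above the median of the genes with at least 10 reads, which was 4.47 log2 CPM, together with EGR1 and NR4A1, while the other 5 members lay below it.

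**Figure D2:**
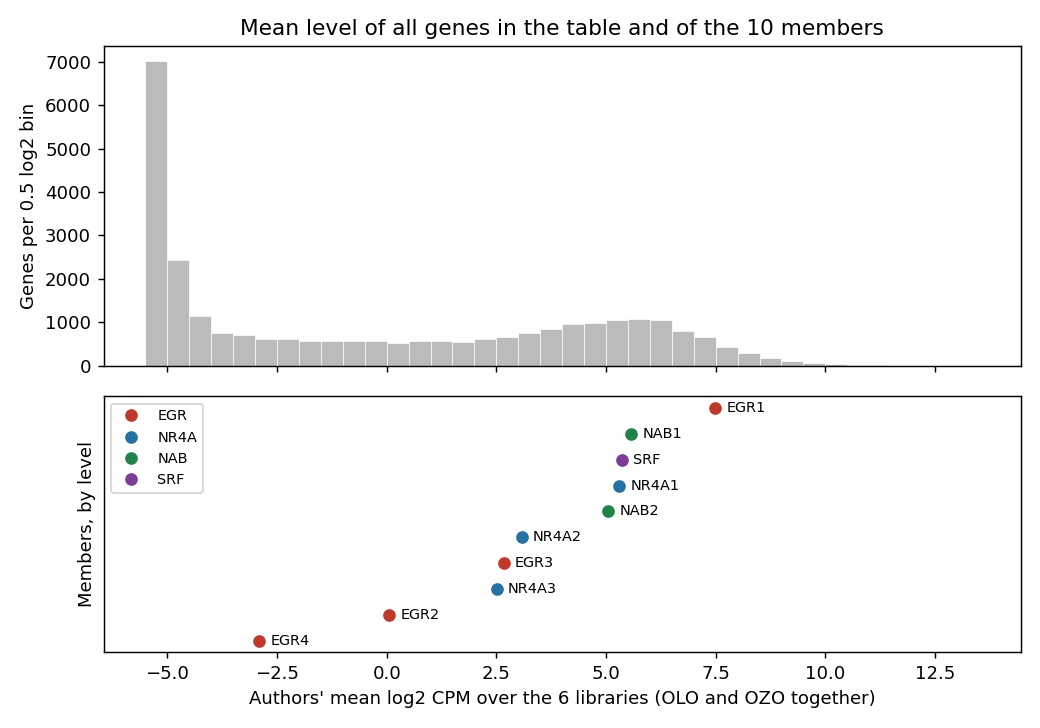
Mean level of all 28395 genes (upper panel, number of genes in bins of 0.5) and of the 10 members (lower panel, 1 point a gene, coloured by family, ordered by level) on the same horizontal axis, the authors' mean log2 CPM over the 6 libraries of both groups. EGR1 sits at 7.50, NAB1, SRF, NR4A1 and NAB2 between 5.05 and 5.58, and EGR4 at -2.90.

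Because long transcripts collect more fragments, levels of different genes were compared per kilobase of the canonical GENCODE transcript. EGR1 again came first, with 57.6 CPM per kilobase, followed by NR4A1 with 15.9, NAB2 with 13.3, NAB1 with 10.6 and SRF with 9.82 CPM per kilobase. NR4A2 had 2.45, EGR3 had 1.42, NR4A3 had 1.01, EGR2 had 0.351 and EGR4 had 0.0602 CPM per kilobase. The list thus spanned a 957-fold range of level per kilobase, from EGR4 to EGR1, all of it within the EGR family. The NAB genes spanned a 1.26-fold range. The NR4A family spanned a 15.7-fold range, which became 8.20-fold with the longest transcripts and 6.01-fold with the union of exons, since it rests on the length of NR4A1. The median over the 10 genes was 6.13 CPM per kilobase, and over the genes with at least 10 reads and a known length it was 7.39 CPM per kilobase.

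The steps in this order were unequal. EGR1 was 3.62-fold above NR4A1, or 7.05-fold with the longest transcripts and 10.6-fold with the union of exons. SRF was 4.01-fold above NR4A2, NR4A3 was 2.90-fold above EGR2, and EGR2 was 5.82-fold above EGR4. The steps from NR4A1 through NAB2 and NAB1 to SRF were 1.08-fold to 1.26-fold. Whether any neighbours differ beyond the spread between libraries was not tested, since the deposited mean does not carry that spread. The place of NR4A1 depended on its length. NR4A1 has 22 annotated transcripts, and with its longest transcript it had 8.17 CPM per kilobase, and with the union of its exons 5.42 CPM per kilobase, which placed it at rank 5, below NAB2, NAB1 and SRF. With either length the places of EGR1 and of the 5 lowest genes stayed as they were.

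**Figure D3:**
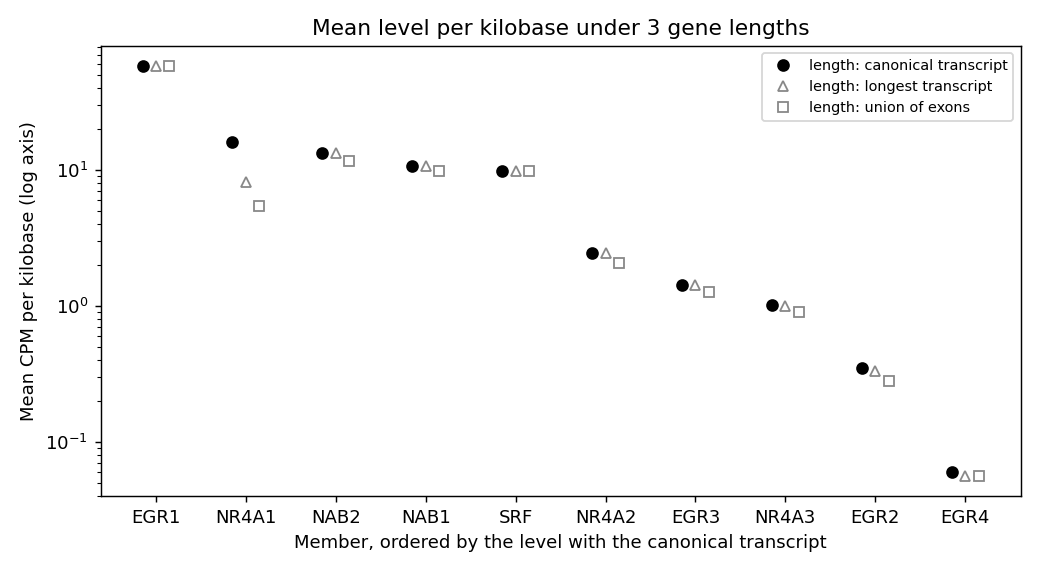
Mean level per kilobase (vertical axis, CPM per kilobase on a log axis) of the 10 members under 3 gene lengths; black circles use the canonical transcript, triangles the longest transcript and squares the union of exons. The 3 points of NR4A1 range from 5.42 to 15.9, while those of EGR1 coincide at 57.6.

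The members also differed in gene structure. All 4 EGR genes have 2 exons in their canonical transcript, NR4A1, NAB2 and SRF have 7, NR4A2 and NR4A3 have 8 and NAB1 has 10, against a median of 9 over genes with at least 10 reads. Gene spans were taken from GENCODE over all annotated transcripts, and can be wider than the RefSeq coordinates given above. Those of the EGR family ranged from 2773 bases for EGR4 to 7172 bases for EGR2. NAB2 with 6434 bases fell within that range, SRF spanned 10238 bases, and the NR4A genes and NAB1 spanned between 17912 and 46021 bases. The lowest of these was NR4A2, whose RefSeq coordinates enclose a shorter stretch than the span of SRF.

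Some reads could also belong to other genes. Of the 50-base windows of the canonical transcripts, 28.9% of those of NR4A1 were also present in transcripts of its antisense gene NR4A1AS in one orientation or the other, and 10.8% of those of NAB1 in an antisense RNA or the pseudogene NAB1P1. The share was 3.34% for EGR2, 2.58% for EGR3 and 0.819% for NAB2, the last with STAT6, whose exons overlap the end of NAB2 by 69 bases on the opposite strand and which had a mean of 38.7 CPM. No window of EGR1, EGR4, NR4A2, NR4A3 or SRF was shared with another gene, so the members of a family share no stretch of 50 bases with one another. The libraries were strand-specific, but the strand setting of the counting is not stated. The levels of NR4A1 and NAB1, and less so of EGR3 and NAB2, are uncertain to that extent. A strand setting does not settle the share of NAB1 with its pseudogene, or that of EGR2 with an RNA gene on the same strand. The windows were shorter than the reads, so a shared window need not make a read ambiguous.

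The genes that act above and beside these factors were described from lists. Of the SRF partners, 5 of 6 had at least 10 reads, with a median of 15.7 CPM per kilobase. The ternary complex factor ELK3 was the highest of them with 32.4 CPM per kilobase, above SRF itself. Without the length, ELK4 lay above ELK3, with 264 against 136 CPM. MYOCD, the partner known from heart and smooth muscle, was the lowest and had an implied 0.804 reads per library. All 12 listed genes of the ERK cascade were read, with a median of 16.5 CPM per kilobase. They ran from RPS6KA5 with 1.02 to the kinase gene MAP2K1 with 52.4 CPM per kilobase. EGR1 with 57.6 CPM per kilobase lay above all 12. Only the canonical transcript length was used for these lists, and the order within a list rests on it. In CPM, RPS6KA2 was the lowest of the 12 with 6.65 and RPS6KA3 the highest with 260, above EGR1 with 181.

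The CREB group, which binds the cAMP response element or serves as its coactivators, had 5 of 5 genes read and a median of 14.2 CPM per kilobase. It ran from CREB1 with 6.84 to ATF1 with 23.8 CPM per kilobase. Without the length, CREB1 lay above ATF1, with 69.0 against 57.5 CPM. Of the retinoid X receptors, which can pair with NR4A1 and NR4A2, only RXRA had at least 10 reads per library, with 2.53 CPM per kilobase. RXRB was the lowest with an implied 0.879 reads. Sequence shared with other genes or other copies was checked only for the 10 members. Whether the low RXRB count reflects its RNA level was therefore not tested. CHD4, a chromatin remodeller known to bind NAB2, had 89.8 CPM per kilobase, more than any of the 10 genes.

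**Figure D4:**
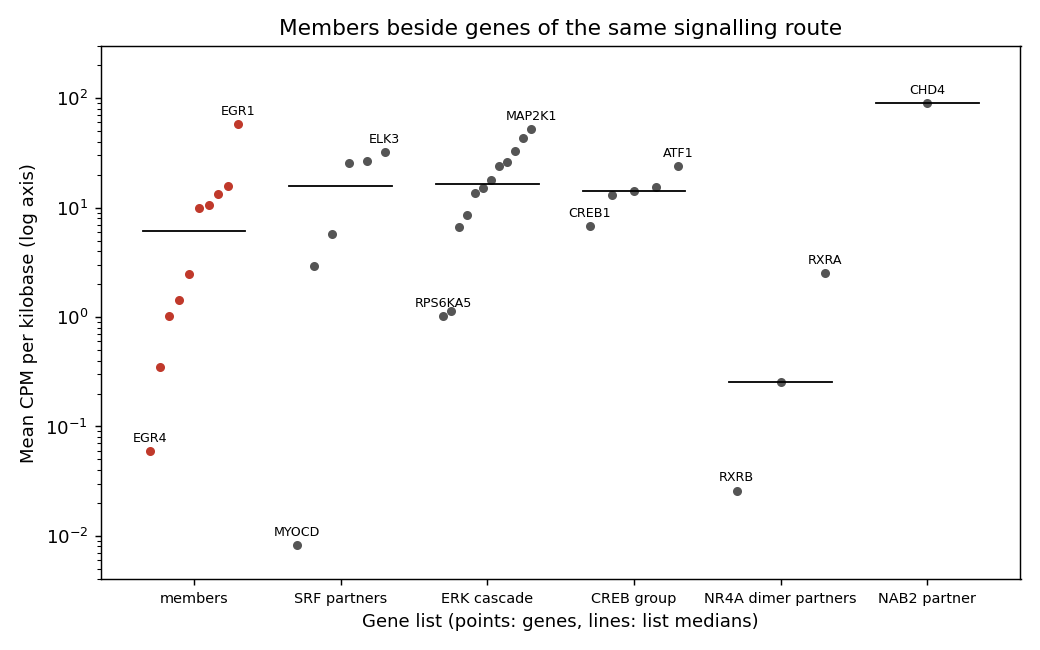
Mean level per kilobase (vertical axis, CPM per kilobase on a log axis) of the 10 members (red) and of the genes of 5 related lists (grey), 1 point a gene, with list medians as lines and the lowest and highest gene of each list named. The members range from 0.0602 for EGR4 to 57.6 for EGR1, while the CREB group stays between 6.84 and 23.8.

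The labelled cell type was checked against its markers. Of 9 markers of melanocytes and melanoma, 6 had at least 10 reads. SOX10 with 49.9 CPM, ERBB3 with 47.2 CPM and MITF with 27.1 CPM were the highest of them. The other 6 had 2.80 CPM or less, and the pigment gene TYR had no read in any library. Of the markers of other cells of skin, at least 10 reads were seen for 2 of 6 keratinocyte, 3 of 6 fibroblast, 2 of 4 immune and 1 of 3 endothelial genes. CD68 with 32.8 CPM and KRT10 with 25.5 CPM were the highest of these, followed by LUM with 4.79 CPM and KRT14 with 4.24 CPM. In CPM, without the length, LUM and KRT14 lay above 6 of the 9 melanocyte and melanoma markers. Per kilobase, LUM with 1.79 CPM lay below the markers S100B with 2.52 and S100A1 with 4.56. KRT14 with 2.59 CPM per kilobase lay below S100A1. PTPRC, KRT5 and COL1A2 had under 2 implied reads. Of the 9 melanocyte and melanoma markers, only SOX10, ERBB3 and MITF exceeded 2.80 CPM, and pigment markers were low or unread. CD68 lay above MITF, so these lists did not settle the cell type, which is taken from the label.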

How the data were processed

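RNA-seq libraries of A375 cells (3 OLO, 3 OZO, grouped by their titles) were prepared with a directional kit. Per the study's methods, the authors aligned paired-end reads to hg38 with HISAT2 2.1.0, counted them per gene with featureCounts 2.1.1 and used limma-voom 3.58.1. The deposited log2 values used here are limma's mean log2 CPM over all libraries, for which voom adds 0.5 to each count. The scaling, read filter and strand setting are not stated. The other numeric columns hold the authors' own fold change, t, p-values and log odds, and were not used. No test between groups was therefore run.

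Reads were derived here with Python 3.11.15. Since voom's 0.5 makes every library contribute an odd number, the mean of a gene relative to the lowest value gives, over 6 libraries, a product of odd numbers. All 15294 genes with products under 1000000000 (100%) fell on an odd whole number, with a tolerance of 0.001 on the implied whole number. Implied reads are geometric means per library, and 10 was the minimum for a gene to count as read. The calculation was run on simulated counts whose values were built with the same formula, without scaling factors. That run checks the arithmetic only and cannot show how the authors' values were made. Lengths, exons and overlaps came from GENCODE 44, matched by Ensembl identifier for 25497 genes, coordinates and windows from RefSeq GRCh38.p14. All members were named whatever their values, with the highest and lowest gene per kilobase of each related list. Further genes, STAT6, NR4A1AS, NAB1P1, ELK4, RPS6KA2, RPS6KA3 and the cell markers, were named after their values were seen. Members and lists were chosen with earlier results of these data known. Gene structure and shared windows were added after the levels were seen.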

Additional observations from a re-analysis of the deposited data

How the results depend on the processing

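No paired analysis was possible because the deposited mean covers both groups together. For the same reason no replicate could be left out. Protein identity within the families was not run, as no protein sequence was used here. Of 44 alternatives, 39 stayed within 1.5 times of the value given, but some of these could not have moved. EGR1 and SRF have the same length under every setting, and a motif absent from the whole window is absent from its part. The count is therefore no measure of stability. Above the median gene there were 9 members among all genes and 5 among genes with at least 10 reads, since that filter removes the unread genes that lower the median. Over 10 CPM per kilobase there were 4 members, and 2 with the union of exons, which lengthens NR4A1 and NAB1. NR4A1 fell from 15.9 to 8.17 and 5.42 CPM per kilobase with the longest transcript and the union of exons. The number of members with a TATA sequence went from 1 to 0 in the 200 bases before the start, because the match lies after it. The 0.5 added to each count moved EGR4 most, from 0.134 to 0.106 CPM without it. Depth limits EGR4 and EGR2 most, and the spread between libraries is unknown for every gene.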
